A study of Zea mays with 7 samples.

Results

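The library labelled ago104 was compared with both B73 libraries along chromosome 2, by the coverage of 1 kb bins, by the bases covered, and by the lengths of isolated stretches of coverage. These are 3 of the 7 libraries of the series, chosen by their labels. They hold small RNAs recovered by RNA immunoprecipitation from immature ears of maize, and the labels name AGO104 and AGO105 as the antibodies of all of them. The B73 libraries are biological replicates of the inbred line B73, which carries the neutral b allele of the booster1 (b1) locus, and serve as the control. The ago104 library is numbered replicate 2 of its genotype and stands alone, so no difference between the genotypes has a replicate check, and no test was run. Its allele, zygosity and genetic background are not given, and it is not among the libraries described with the study's results. The ago104-5 mutant described with the study is a dominant, Mutator-induced knockout available in the B73 background. Whether this library came from it is not stated. The remaining libraries came from plants heterozygous (Mm) or homozygous (mm) for mop1-1, in stocks that carry the B' epiallele of b1. They have 2 replicates each and are given only beside results for the ago104 library. The ago104 gene lies outside the chromosome covered, so its loss could not be checked, and neither could markers of the ear.

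In RNA-directed DNA methylation (RdDM), small interfering RNAs are made from RNA polymerase IV transcripts that an RNA-dependent RNA polymerase, MOP1 in maize, turns into double strands for a Dicer-like enzyme to cut. ARGONAUTE proteins of the AGO4 clade, to which AGO104 and AGO105 belong, carry these siRNAs to matching transcripts and guide DNA methylation there. The pathway acts on transposons, above all on those near genes, and is required for paramutation at b1, where tandem repeats upstream of the gene are the source of siRNAs.

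The ago104 library was much deeper than the controls. It held 20104173 alignments on chromosome 2, against 2781590 in B73 replicate 1 and 4431623 in B73 replicate 2, which is 7.23 and 4.54 times as many. The mean depth over covered bases was 5.57 in ago104, 3.02 in B73 replicate 1 and 3.64 in B73 replicate 2. Counts of bases and lengths were therefore compared after each library had been thinned at random to 2781590 alignments, here called equal depth. Bin coverage is given in scaled units, of which every library holds 1000000 on the chromosome. The highest 1% of bins held 36.1% of the coverage in ago104, 44.9% in B73 replicate 1 and 48.0% in B73 replicate 2. The B73 replicates also differed from each other: between them, 1510 of 13950 bins with enough coverage (10.8%) were apart by at least 4-fold.

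At equal depth, the small RNAs of the ago104 library were spread over more of the chromosome than those of B73. They covered 19694867 bases, against 16696690 in B73 replicate 1 and 15600383 in B73 replicate 2, and so lay above both. The ratio to the B73 mean was 1.22, and 4 other random draws gave values from 1.219 to 1.222. The same order held in each of the 25 segments of 10 Mb, where ratios ran from 1.18 to 1.25. By summed scaled coverage no such uniform difference appeared, since ago104 was above both B73 libraries in 11 segments and below both in 7, with ratios from 0.787 to 1.33. With all 7 libraries thinned to 936656 alignments, ago104 covered 8492391 bases, between Mm replicate 1 at 9349580 and Mm replicate 2 at 8336622, while the mm libraries covered 3782910 and 3663304.

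**Figure D1:**
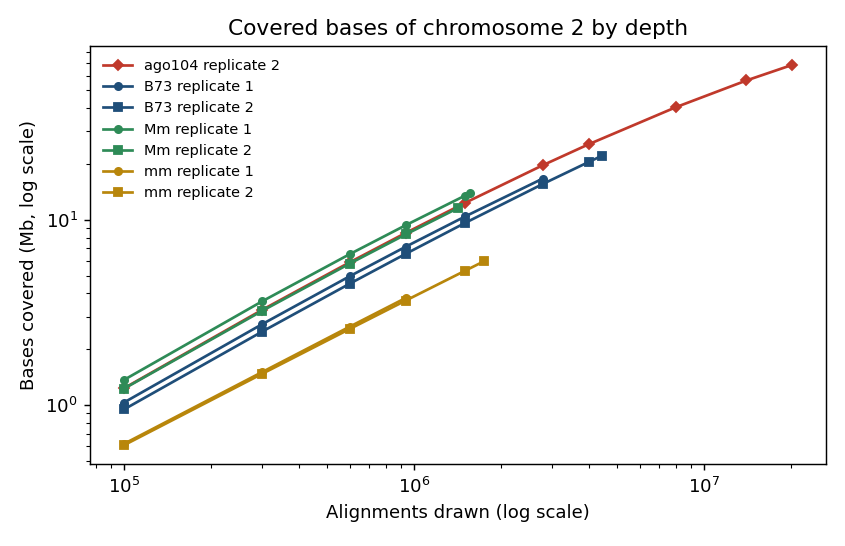
Bases of chromosome 2 covered at least once (Mb, log scale) against the number of alignments drawn at random (log scale), 1 line per library. At any matched depth the ago104 line lies above both B73 lines and close to those of Mm, and it alone continues to 20104173 alignments.

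Few bins were covered on one side alone. Of 151613 bins with at least 50 covered bases at equal depth, in ago104 or in both B73 libraries, 1541 were covered in ago104 and had no alignment in either B73 library (1.02%), and 998 were covered in both B73 libraries and had none in ago104 (0.658%). The difference between these counts is set partly by the rule, which asks for coverage in 1 library on one side and in 2 on the other, and it turned around at a minimum of 100 bases, with 79 bins for ago104 and 124 for B73. Between single libraries, 6452 bins were covered in ago104 and empty in B73 replicate 1, and 3166 the other way. Against B73 replicate 2 the counts were 7746 and 2606, and between the B73 replicates 3330 were covered in replicate 2 alone and 5018 in replicate 1 alone. Of the 151613 bins, 22.2% lay within 2 kb of a protein-coding gene, against 2.66% of those covered in ago104 alone and 5.41% of those covered in B73 alone. They were scattered, and the longest runs spanned 3 kb and 2 kb. Before thinning, none of the 998 bins was empty in ago104, where they held a median of 177 covered bases. Of the 1541 bins, 816 were empty in the full B73 replicate 2.

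The lengths differed more plainly than the extent of coverage. A stretch of coverage that touches no other was taken to show the length of the alignments within it. In a thinned library these alignments had first been rebuilt from the depth, so their lengths rest on that step. How this length relates to the length of the read is not given in the sources used here, so no length is set equal to a class of small RNA. Stretches of 20 bases made up 14.3% of the isolated stretches of 16 to 21 bases in ago104, with an exact binomial interval at 95% from 14.19 to 14.35, which like all intervals here covers counting error only. The shares in B73 were 6.02% and 6.24%. The ago104 library was 8.14 percentage points above the B73 mean, a ratio of 2.33, where the B73 replicates had an SD of 0.156 points (n = 2). The rarer 21-base stretches made up 1.21% in ago104, 0.574% in B73 replicate 1 and 0.774% in B73 replicate 2. The difference from the B73 mean, 0.537 points, was 0.283 without thinning and 1.34 among all paired alignments. The modal length was 19 bases in the 3 libraries, at 39.4% in ago104, 40.2% in B73 replicate 1 and 39.1% in B73 replicate 2, so that ago104 lay between the controls. Shorter stretches were fewer in ago104. At 18 bases the shares were 19.03% in ago104, 23.2% in B73 replicate 1 and 21.9% in B73 replicate 2, and 16-base stretches made up 11.5% in ago104, 14.0% in B73 replicate 1 and 15.0% in B73 replicate 2. The difference at 16 bases was -2.98 points, and -5.36 among all paired alignments.

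**Figure D2:**
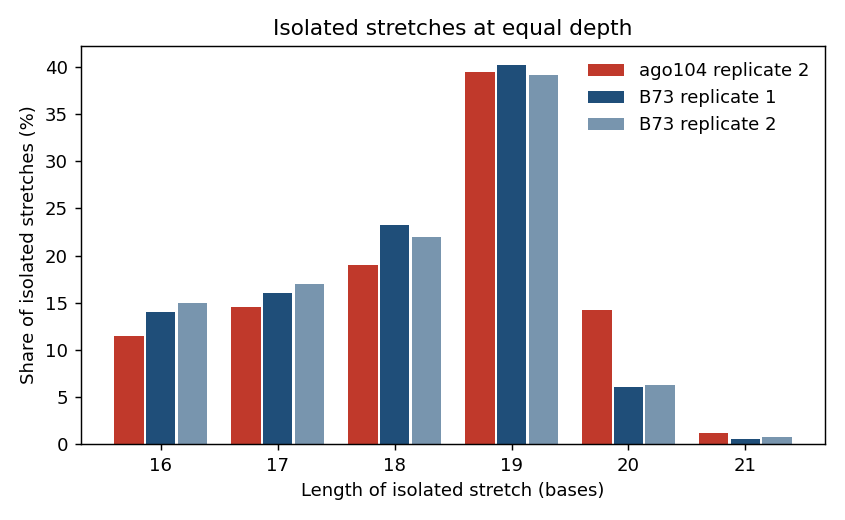
Share of isolated stretches of each length (%, vertical axis) against their length in bases (16 to 21), weighted by depth, in the ago104 library and both B73 libraries at equal depth. The bars differ most at 20 bases, where ago104 stands at 14.3% and B73 at 6.02% and 6.24%.

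This difference held along the whole chromosome. The 20-base share of ago104 was above both B73 libraries in 25 of 25 segments of 10 Mb, at 13.5% to 14.8% against 5.20% to 6.95%, with no overlap. The 21-base share was also above both in 25 segments, and the 16-base and 18-base shares were below both in 25. At 19 bases the order changed from segment to segment: ago104 was above both in 2 and below both in 11. The rise at 20 bases was present in genes and outside them. Within protein-coding genes the share was 11.3% in ago104, 4.75% in B73 replicate 1 and 5.58% in B73 replicate 2. In the 2 kb beside them it was 13.6% in ago104, 5.72% in B73 replicate 1 and 6.24% in B73 replicate 2, and away from genes 14.9%, 6.28% and 6.36%. With the 7 libraries thinned to the same depth, the 20-base share was 15.1% in ago104, 6.41% and 6.54% in B73, 9.68% and 11.1% in Mm, and 4.99% and 4.38% in mm. The ago104 library was the highest of the 7 and the mm libraries were the lowest.

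**Figure D3:**
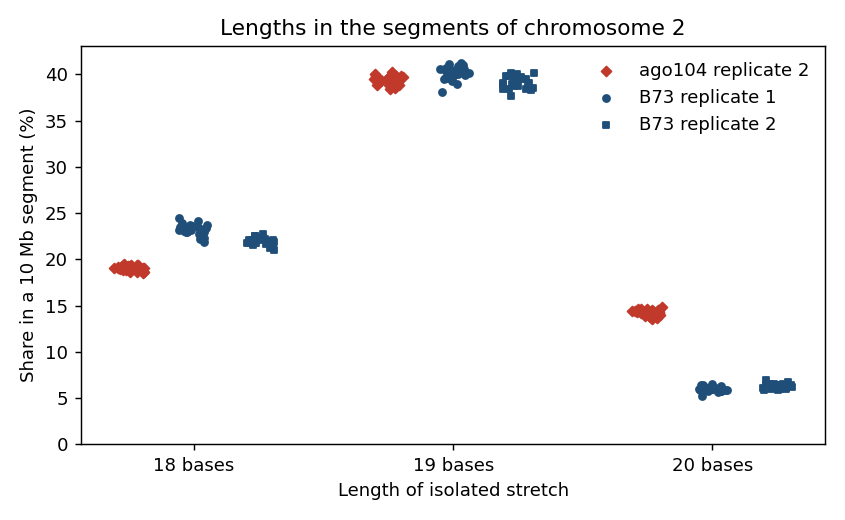
Share of isolated stretches of 18, 19 and 20 bases (%, vertical axis) in each 10 Mb segment of chromosome 2, 1 point per segment and library. The ago104 points lie above all B73 points at 20 bases (13.5% to 14.8% against 5.20% to 6.95%), below them at 18 bases, and among them at 19 bases.

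Starts shared by isolated stretches of 2 libraries showed whether the same places carried other lengths. Where B73 replicate 1 had a 19-base stretch, the stretch with the same start was 20 bases long in ago104 in 10.7% of 5937 cases and in B73 replicate 2 in 4.55% of 8191. With B73 replicate 2 as the reference, the shares were 10.3% in ago104 and 4.11% in B73 replicate 1. Starts that had 20 bases in ago104 were 20 bases long in 39.8% and 19 bases long in 37.4% of 1702 cases in B73 replicate 1. In B73 replicate 2 these shares were 39.0% and 37.2% of 1516 cases. Between the B73 replicates, starts with 20 bases in one were 19 bases long in the other in 33.4% and 36.0% of cases, close to the shares for ago104. They were 20 bases long in 48.7% and 47.4% of cases, above the shares for ago104. Few starts were shared: 3.49% of the 20-base stretches of ago104 began where a B73 replicate 1 alignment did at equal depth, and 2.91% for B73 replicate 2.

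Coverage was next compared bin by bin. A bin was tested where the mean of ago104 and the B73 mean reached 10 scaled units, which 13950 bins did, 5.72% of the chromosome. The ago104 library was above both B73 libraries in 53.0% of them, below both in 19.6% and between them in 27.4%. The median log2 ratio to the B73 mean, with a pseudocount of 1 unit, was 0.24, with quartiles of -0.23 and 0.56. A bin was called where ago104 was at least 4-fold beyond both B73 libraries. By this rule 183 bins were higher in ago104 (1.31%) and 151 were lower (1.08%). With scaling by the median ratio over bins, which moved the median log2 ratio to -0.04, 118 bins were higher and 258 lower, and with scaling to the coverage outside the highest 1% of bins 127 and 239. With B73 replicate 1 left out, 259 bins were higher and 396 lower, and with B73 replicate 2 left out, 946 and 746. The balance of higher and lower bins, 54.8% higher as first scaled against 31.4% and 34.7%, thus depended on the scaling. The controls themselves set a wide background: 1723 bins were apart by at least 4-fold between ago104 and B73 replicate 1, 634 between ago104 and B73 replicate 2, and 1510 between the B73 replicates.

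**Figure D4:**
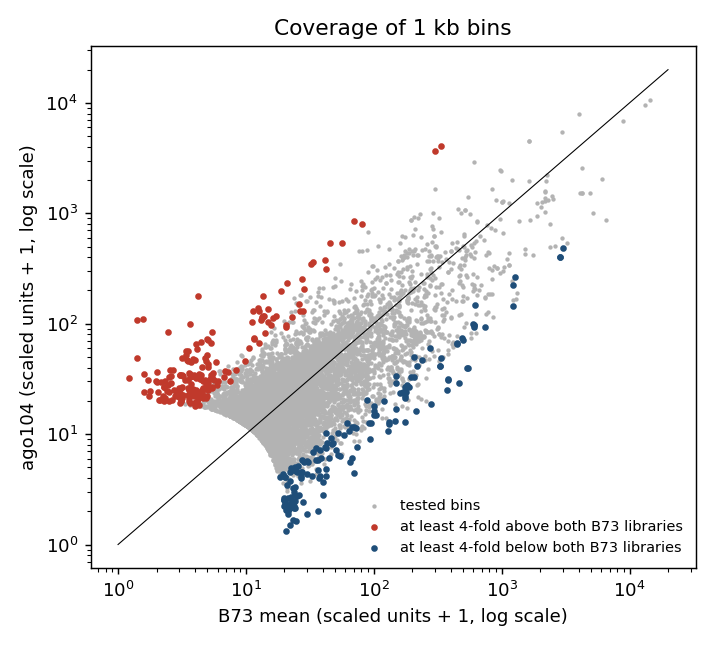
Coverage of the 13950 tested 1 kb bins in ago104 (vertical) against the B73 mean (horizontal), in scaled units plus 1 on log axes, with the line of equal values. The 183 bins called higher (red) and the 151 called lower (blue) lie at the edges of a broad cloud, and the lower left corner is empty because of the minimum of 10 units.

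The called bins lay mostly alone and away from genes. The 183 higher bins formed 157 regions when bins under 2 kb apart were joined, of which 144 were single bins, and the 151 lower bins formed 137, of which 129 were single bins. Of the bins tested, 37.7% lay within 2 kb of a protein-coding gene, against 23.5% of those higher and 31.1% of those lower in ago104. At equal depth, the median higher bin had 244 covered bases in ago104, 94 in B73 replicate 1 and 89 in B73 replicate 2. The median lower bin had 98 in ago104, 140 in B73 replicate 1 and 159 in B73 replicate 2. Over all tested bins the medians were 255.5 in ago104, 230 in B73 replicate 1 and 217 in B73 replicate 2. The higher bins were thinly covered in B73 and the lower bins in ago104, which the 4-fold rule itself favours. That rule also sets the direction of the shares of coverage that follow. The higher bins held 2.04% of the coverage of ago104, 0.106% of B73 replicate 1 and 0.276% of B73 replicate 2. The lower bins held 0.422% of ago104, 3.52% of B73 replicate 1 and 2.49% of B73 replicate 2.

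The Mm libraries lay on the side of ago104 in most of these bins, and the mm libraries in fewer of the higher ones. In the bins higher in ago104, the median was 32.1 units in ago104, 2.94 and 3.38 in B73, 25.4 and 21.03 in Mm, and 25.6 and 20.1 in mm. Of these 183 bins, 179 and 180 were above both B73 libraries in Mm, while each mm library was above both in 128 and below both in 46. In the bins lower in ago104, it was 6.23 in ago104, 42.8 and 43.2 in B73, 5.80 and 6.11 in Mm, and 14.3 and 12.0 in mm. All 151 were below both B73 libraries in both Mm libraries, and 146 and 147 were in mm. Over all tested bins the medians were 17.8 in ago104, 15.3 and 14.9 in B73, 18.9 and 18.2 in Mm, and 4.78 and 3.74 in mm. Bins above or below both B73 libraries in Mm or mm were not counted over all tested bins. The bins were chosen on ago104 and B73 alone, and a comparison of Mm or mm with B73 would share the B73 libraries. Bins picked as low or high in both B73 libraries favour the ago104 side in any other library. A difference of ago104 from B73 and a difference of these B73 libraries from the Mm libraries as well, in genetic background or otherwise, cannot be told apart in these bins.

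The bin with the largest rise, at positions 173840001 to 173841000 of chromosome 2 and 40961 bp from the nearest annotated gene, held 106 scaled units in ago104, 0.377 in B73 replicate 1 and 0.448 in B73 replicate 2. It had 2231 alignments in ago104 and 1 and 2 in B73, and its log2 ratio was 6.25. The second, from 173863001 to 173864000, held 110 units in ago104, 0.337 in B73 replicate 1 and 0.821 in B73 replicate 2, a log2 ratio of 6.14. The pair had similar values in the 5 libraries with high coverage, with 256 and 259 units in mm in the first and 249 and 263 in the second. Since a read may have been placed at more than one site, whether both bins count the same reads was not tested. The third, from 6290001 to 6291000 in the protein-coding gene LOC103625748, held 179 units in ago104, 2.94 in B73 replicate 1 and 3.55 in B73 replicate 2, a log2 ratio of 5.40. The fourth, from 169248001 to 169249000, held 48.2 units in ago104 and 0.377 and 0.448 in B73. The fifth, from 33396001 to 33397000 and 2275 bp from LOC100279386, held 84.0 units in ago104 and 1.35 and 1.60 in B73. In all of these 5 bins both B73 libraries were low and the other 5 libraries were high. The Mm libraries reached 712 and 394 units and the mm libraries 290 and 336 in the fifth, above ago104.

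The lower bins with the largest differences included genes. The first, from 73419001 to 73420000 within the protein-coding gene LOC100277287, held 1.03 scaled units in ago104, 37.2 in B73 replicate 1 and 33.7 in B73 replicate 2, a log2 ratio of -4.17. It had 22 alignments in the deep ago104 library, fewer than the 107 and 145 in the shallower B73 libraries. The third, from 73424001 to 73425000 in the same gene, held 0.888 units in ago104, 34.9 in B73 replicate 1 and 23.1 in B73 replicate 2. In both bins the B73 alignments covered 466 to 562 bases and so were spread over much of the bin. The second, from 193201001 to 193202000, had 27.9 units in ago104, 756 in B73 replicate 1 and 174 in B73 replicate 2, on 115 and 77 covered bases in B73. Its log2 ratio was -4.01, and the B73 replicates themselves were far apart there. The fourth, from 89570001 to 89571000 in LOC100276147, held 3.41 units in ago104, 75.3 in B73 replicate 1 and 62.3 in B73 replicate 2. The fifth, from 217559001 to 217560000, held 0.317 units in ago104, 20.5 in B73 replicate 1 and 19.02 in B73 replicate 2. In these 5 bins the Mm and mm libraries were also below both B73 libraries.

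**Figure D5:**
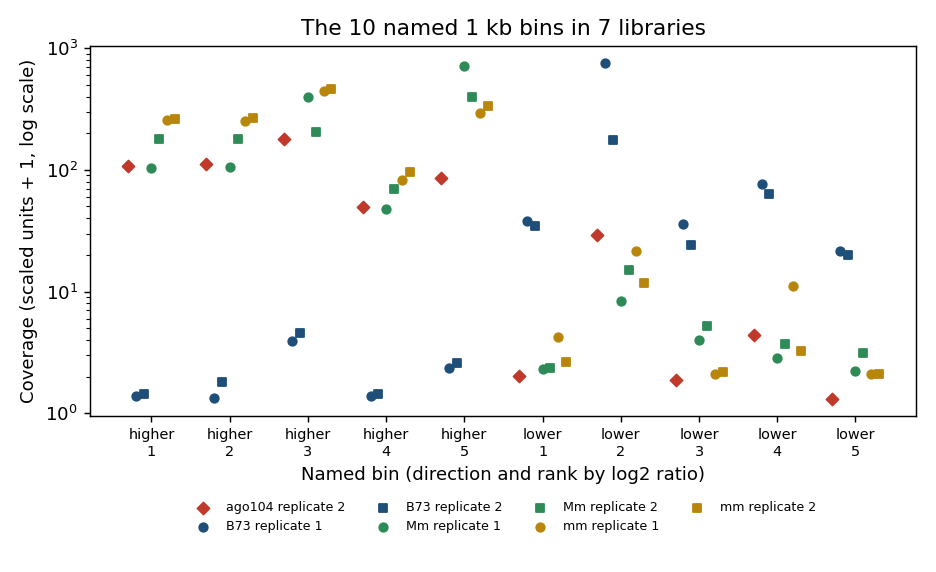
Coverage (scaled units plus 1, log scale) of the 5 bins with the largest rise and the 5 with the largest fall of ago104 against B73, in all 7 libraries. In the higher bins the B73 points lie apart at the bottom, and in the lower bins they lie apart at the top, while the Mm and mm points lie nearer to ago104.

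The largest continuous regions, singled out for their size after the values were known, showed a further order among the libraries. From 215126001 to 215135000, 90 bp from the long non-coding RNA gene LOC103647789, 8 bins were called higher. This region of 9 kb held 232 scaled units in ago104, 11.9 in B73 replicate 1 and 12.7 in B73 replicate 2. The Mm libraries held 84.4 and 99.4 units there and the mm libraries 2.12 and 4.19, so that ago104 was highest, Mm next, and mm below B73. In the 4 other regions of at least 3 higher bins, ago104 held 74.6 to 159 units, and Mm 20.8 to 66.0. The mm libraries held 0 to 7.99 and B73 2.75 to 11.9. These regions thus differed from the 5 single bins above, where mm was as high as ago104 or higher. Among regions lower in ago104, the largest, from 111789001 to 111794000 within LOC103648855 and LOC118476343, held 23.2 units in ago104, 207 in B73 replicate 1 and 181 in B73 replicate 2. A stretch of 3 kb in LOC103648413, from 12253001 to 12256000, held 3.42 units in ago104, 69.0 in B73 replicate 1 and 55.6 in B73 replicate 2. Another 3 kb, from 124774001 to 124777000 in LOC100277594, held 9.35 units in ago104, 91.7 in B73 replicate 1 and 77.0 in B73 replicate 2. In each of these lower regions the Mm and mm libraries were also below both B73 libraries. The Mm libraries held 13.02 and 14.8 units in the first, 11.3 and 5.30 in the second, and 7.95 and 9.35 in the third. The mm libraries held 28.01 and 6.11, 37.5 and 23.95, and 11.8 and 9.91 units, in the same order.

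The deepest bins of ago104 were deep in B73 too, with an exception in 1 control. The bin from 157624001 to 157625000 held 10546 scaled units in ago104, 15333 in B73 replicate 1 and 13613 in B73 replicate 2, and the next, from 139767001 to 139768000, held 9554, 13837 and 12654. In both, ago104 was below both controls. The third, from 159287001 to 159288000, held 7994 units in ago104, 1580 in B73 replicate 1 and 6443 in B73 replicate 2. The fourth, from 158364001 to 158365000 in LOC103649016, held 6829 in ago104, 9137 in B73 replicate 1 and 8505 in B73 replicate 2. The fifth, from 12271001 to 12272000, held 5489 in ago104, 530 in B73 replicate 1 and 5367 in B73 replicate 2. In the third and the fifth, B73 replicate 1 stood apart from the other B73 library and from ago104.

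Protein-coding genes held a smaller share of the coverage in ago104 than in either B73 library, and the 2 kb beside them a larger one. Protein-coding genes held 13.9% of the coverage in ago104 and 15.7% to 16.4% in B73. The 2 kb beside them held 12.5% in ago104 and 10.8% to 10.9% in B73, and the sequence away from genes 68.7% against 66.2% to 68.8%. By bases covered at equal depth the order beside genes was the opposite, at 10.9% in ago104 against 11.2% to 11.5% in B73, so that the excess lay in depth and not in the number of bases. By coverage, the Mm libraries lay on the same side of B73 as ago104. They held 13.4% and 13.5% in protein-coding genes and 13.1% and 12.8% in the 2 kb beside them. The mm libraries held 15.5% and 15.6% in protein-coding genes and 8.25% and 8.21% beside them. The 209 rRNA genes, whose RNAs are parts of the ribosome, held 0.455% in ago104 and 0.460% to 2.36% in B73, where B73 replicate 1 was the high library. The 153 tRNA genes held 0.579% in ago104, within the B73 range of 0.424% to 1.04%. The 78 snoRNA genes, whose RNAs guide the modification of rRNA, held 0.163% in ago104 and 0.184% to 0.255% in B73. The 23 snRNA genes of the splicing machinery held 0.0888% in ago104 and 0.0962% to 0.117% in B73.

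The miRNAs, which are cut from hairpin transcripts and usually act with AGO1 on mRNAs, made up more of the ago104 library. The 26 annotated miRNA genes held 1861 alignments in ago104, 73 in B73 replicate 1 and 87 in B73 replicate 2. Per 1000000 alignments these were 92.6 in ago104, 26.2 in B73 replicate 1 and 19.6 in B73 replicate 2, so that ago104 was above both. The Mm libraries held 107 and 82.5 per 1000000 and the mm libraries 104 and 67.7, which places B73 below the other 5 libraries. By covered bases at equal depth, miRNA genes did not stand out, at 0.00317% in ago104 and 0.00278% to 0.00341% in B73. Most of the alignments were 16 bases long, 80.5% in ago104, 56.2% in B73 replicate 1 and 65.5% in B73 replicate 2, unlike the 19-base mode of the chromosome.

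A pair of miRNA genes carried most of this excess. MIR164a, whose miRNA targets mRNAs of NAC transcription factors that set organ boundaries, had 723 alignments in ago104, 33 in B73 replicate 1 and 28 in B73 replicate 2. Per 1000000 alignments these were 36.0 in ago104, 11.9 in B73 replicate 1 and 6.32 in B73 replicate 2, a ratio of 3.96 to the B73 mean. MIR396c, whose miRNA targets growth-regulating factors, had 637 alignments in ago104, 6 in B73 replicate 1 and 14 in B73 replicate 2, or 31.7, 2.16 and 3.16 per 1000000, a ratio of 11.9. Without this pair, the other 24 genes held 24.9 per 1000000 in ago104, 12.2 in B73 replicate 1 and 10.2 in B73 replicate 2, still above both controls.

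At least 10 alignments were present in any of the 3 libraries for 14 miRNA genes, of which 3 reached that number in B73, so that most were listed through the depth of ago104. Per 1000000 alignments, ago104 was above both B73 libraries in 11 of the 14 and between them in 3. Over all 26, it was above both in 16, of which 6 had no B73 alignment, between them in 8 and below both in 2. For the tested 1 kb bins, compared by scaled coverage above a minimum, ago104 was above both in 53.0%. It was between them in 27.4% of those bins and below both in 19.6%. MIR156e and MIR156f, whose miRNA holds back SPL transcription factors and so prolongs the juvenile phase, had 99 and 89 alignments in ago104. In B73 they had 7 and 3 (MIR156e) and 2 and 2 (MIR156f), for ratios of 3.08 and 7.57. MIR171h, from a family that targets GRAS transcription factors of the shoot meristem, had 48 in ago104 and 1 in each B73 library. MIR398a, whose family targets copper proteins such as superoxide dismutases, had 38 in ago104 and 1 and 2 in B73. MIR160f, from a family that targets auxin response factors, had 75 in ago104 and 4 and 13 in B73, a ratio of 1.71. MIR395a, from a family that acts in sulfate assimilation, had 16 in ago104 and 0 in both B73 libraries, and ago104 had 0.796 per 1000000, where the limit that a count of 0 leaves (3 counts) is 1.08 and 0.677 in B73. The ago104 value lay above the limit of B73 replicate 2 and below that of B73 replicate 1. The remaining listed genes (MIR169j, MIR171c, MIR393a, MIR169c, MIR2118b and MIR169g) had 11 to 18 alignments in ago104 and 0 to 4 in each B73 library. Members of a family can share a mature sequence, and the alignments of a read at several of them cannot be separated.

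Of the RdDM genes, mop1 and rmr7 are named on chromosome 2 in the annotation used. The rmr7 gene encodes the second largest subunit of RNA polymerase IV, a subunit that the study describes as shared with RNA polymerase V. The mop1 gene (LOC100502460) had 212 alignments in ago104, 27 in B73 replicate 1 and 40 in B73 replicate 2. Per 1000000 alignments these were 10.5 in ago104 (exact Poisson interval 9.17 to 12.1), 9.71 in B73 replicate 1 (6.40 to 14.1) and 9.03 in B73 replicate 2 (6.45 to 12.3), and the intervals overlapped. The rmr7 gene (LOC100037782) had 648 alignments in ago104, 73 in B73 replicate 1 and 94 in B73 replicate 2, or 32.2 (29.8 to 34.8), 26.2 (20.6 to 33.0) and 21.2 (17.1 to 26.0) per 1000000. The ago104 value was the highest, and its interval overlapped that of B73 replicate 1. These are small RNAs placed within the genes and do not measure the transcripts.

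The 7 tandem repeats upstream of b1 were taken to lie at 19760821 to 19766791. No genome or repeat sequence was at hand, so this place was not checked by sequence, and the counts below rest on it. The repeats so placed had 301 alignments in ago104, 22 in B73 replicate 1 and 47 in B73 replicate 2. Per 1000000 alignments these were 15.0 in ago104 (13.3 to 16.8), 7.91 in B73 replicate 1 (4.96 to 12.0) and 10.6 in B73 replicate 2 (7.79 to 14.1). The ago104 value was above both, and its interval was apart from that of B73 replicate 1 and overlapped that of B73 replicate 2. The Mm libraries had 20.6 and 22.6 per 1000000 and the mm libraries 14.9 and 21.2, so that B73 was the lowest group and ago104 was near the lowest of the mop1 stock. Alignments of 20 bases numbered 12 in ago104 and 0 in both B73 libraries. That is 0.597 per 1000000 (0.308 to 1.04) in ago104, under the 1.08 and 0.677 that a count of 0 (3 counts) allows in B73, so neither B73 library alone is deep enough to show a difference. The 12 alignments began at 3 places of the repeat unit, with starts no more than 5 bases apart counted once. A read that matches several repeats may be counted in each, so the intervals understate the error. The study's composite reference put the repeats of B', which the mop1-1 stocks carry, in place of the enhancer region of B73. The number of repeats in B73 and in the ago104 plants is not given. A difference in the repeats and a difference in small RNAs therefore cannot be told apart here.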

How the data were processed

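Per the labels, small RNAs were immunoprecipitated from immature ears with AGO104 and AGO105 antibodies. According to the methods, reads were trimmed with Trimmomatic to between 15 and 35 bases and aligned with up to 2 mismatches, either to the B73 genome or to a composite with the b1 repeats. Which alignment the tables hold is not stated. The submitters' processing notes name Bowtie 1.2.2 and bedtools. The authors deposited coverage as a signal: the depth of each covered interval of chromosome 2, in whole numbers and not scaled.

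Alignments were rebuilt by pairing rises with falls of the depth in order, which gave 16 to 21 bases for 91.7% of them in ago104, 97.3% in B73 replicate 1 and 96.9% in B73 replicate 2. Isolated stretches touch no other, and without thinning they need no pairing. Thinning drew from the rebuilt alignments, so the lengths in a thinned library depend on the pairing. B73 replicate 1 was left whole at equal depth. The 20-base share of ago104 was 12.96% without thinning, 14.27% at equal depth and 15.05% with the 7 libraries thinned. In B73 replicate 2 it was 6.14%, 6.24% and 6.54%. How far the pairing shaped these shares was not tested. Thinning, the lengths of isolated stretches and the bin calls were tested on simulated data, and the pairing was not. RefSeq genes (Zm-B73-REFERENCE-NAM-5.0, 5872 on the chromosome, of which 4090 are protein-coding) were moved by -2 bp before b1, as fitted on 17 tRNA genes, and by 7855 bp beyond it, as fitted on 136. Positions are those of the tables and not of that assembly.

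Bins are named by a rule: the 5 largest and 5 smallest log2 ratios among called bins (1 per region) and the 5 deepest of ago104. Genes named are miRNA genes with at least 10 alignments, mop1 and genes annotated as RdDM components. The members and lists were chosen with earlier results of these data known. Alternatives changed the pseudocount, filter, scaling, bin size, fold, thinning, random seed, measure of length, gene positions and B73 library. The 10 tables of length classes were not used. The tables were handled with pandas 2.3.3 and numpy 2.4.6 under Python 3.11.15, intervals came from scipy 1.17.1, and matplotlib 3.10.9 drew the plots.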

Additional observations from a re-analysis of the deposited data

How the results depend on the processing

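No paired analysis was possible because the ago104 genotype has 1 library, and a single library gives no replicate error. Bins called higher in ago104 (183) numbered 99 with a pseudocount of 5, 352 and 39 with a filter at 2 and 50 units, 118 with median-ratio scaling, 37 in bins of 10 kb, 732 at 2-fold, and 259 to 946 with 1 B73 replicate left out. Bins called lower (151) numbered 72, 472, 57, 258, 52 and 762 under the same settings, 239 with scaling outside the highest 1% of bins, and 396 to 746 with 1 B73 replicate left out. In each direction the higher count came without B73 replicate 2. Thinning to equal depth gave 193 and 174. The ratio of covered bases was 3.53 without thinning, which follows from the depth of ago104, and 1.18 to 1.26 with 1 B73 replicate left out. Bins covered in ago104 alone (1541) numbered 79 at a minimum of 100 bases, 4777 at 20, and 6452 to 7746 with 1 B73 replicate left out. Those covered in B73 alone (998) numbered 124, 3687 and 2606 to 3166. The 20-base difference was 8.14 percentage points, and 6.88 without thinning, 7.47 among paired alignments, 8.58 with the 7 libraries thinned (an alternative chosen after seeing the data) and 8.03 to 8.25 with 1 B73 replicate left out. At 21 bases the difference of 0.537 points was 0.283 without thinning, 1.34 among paired alignments and 0.927 with the 7 libraries thinned, at 19 bases that of -0.26 was 1.13 among paired alignments, and at 16 bases that of -2.98 was -5.36. The excess of ago104 away from genes, 1.22 percentage points of coverage, was 4.39 by covered bases without thinning and 0.767 by covered bases at equal depth. By coverage it was -0.11 to 2.55 with 1 B73 replicate left out, so its direction in coverage rested on B73 replicate 1. By covered bases without thinning, the differences in miRNA genes (0.00593), other genes (0.432) and the 2 kb beside genes (1.64) turned to -0.000778, -0.155 and -2.84. By covered bases at equal depth, added after seeing the data, other genes were at -0.0306 and the 2 kb beside genes at -0.476. The cause was not tested.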
